A study of Mus musculus with 2 samples.

Results

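Wnt pathway genes were followed across the cell classes of the neonatal mouse lens epithelium. The 10 genes were the receptors Fzd1, Fzd2, Fzd3 and Fzd6, the co-receptors Lrp5 and Lrp6, the secreted modulators Sfrp1, Sfrp2 and Dkk3, and the target gene Axin2. They were chosen by symbol among the 32285 genes of the count table, and all 10 were present. The samples were 2 pools of lens epithelium (replicates 1 and 2), each from 4 to 8 wild-type C57BL/6N pups at postnatal day 2. The capsule with its adhering epithelium was peeled from the fiber mass after removal of most of the surrounding vessels, and single cells were profiled with 10x Genomics 3′ v3.1 chemistry. No treatment or mutant was compared, so every comparison is between classes of cells within the same 2 pools.

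Secreted Wnt proteins bind Frizzled receptors together with the co-receptors LRP5 or LRP6, which protects β-catenin from destruction and lets it act with TCF/LEF factors in the nucleus. Frizzled receptors, FZD3 and FZD6 in particular, also serve planar cell polarity, the alignment of cells within a sheet. SFRP1 and SFRP2 carry a Frizzled-like domain and bind Wnt proteins outside the cell, whereas DKK3 is a divergent member of the Dickkopf family whose action on Wnt signaling varies with context. AXIN2 is part of the β-catenin destruction complex, and its gene is a widely used target of β-catenin and TCF. In the lens, Wnt signaling is known for its part in maintaining the epithelium and in aligning fiber cells, and in the ocular vessels for the norrin and FZD4 pathway with LRP5.

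In mm10 (GENCODE vM21) Fzd1 lies at chr5:4753839-4758035, Fzd2 at chr11:102604396-102608058, Fzd3 at chr14:65192449-65262463 and Fzd6 at chr15:39006034-39038188. Lrp5 lies at chr19:3584828-3686564 and Lrp6 at chr6:134446476-134566965. Sfrp1 is at chr8:23411502-23449632, Sfrp2 at chr3:83766321-83774316, Dkk3 at chr7:112116017-112159057 and Axin2 at chr11:108920349-108950783. Fzd6, Sfrp2 and Axin2 each overlap a noncoding gene on the opposite strand that has a line of its own in the count table.

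Because Axin2 is the one target gene of the set, its sequence was searched for the TCF/LEF motif CTTTGNN, in which each N had to be A or T, on both strands. RefSeq promoters (GRCm38.p6) were found for 3 of the 10 genes (Fzd1, Sfrp2 and Axin2), and none held a match in the 250 bases before the start, against 14.8% of 32851 such windows. The first exon of Axin2 (213 bases, all of it 5′ untranslated) held 1 match, which starts at base 79 of the transcript. It is shown here with its surroundings at chr11:108920416-108920445 of mm10, plus strand, with the motif in capitals.
Axin2 exon 1: agccggctgcgCTTTGATaaggtcctggca
A match in the first 213 bases is present in 10.5% of 58579 coding transcripts, so the letters by themselves are common.

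Cells were sorted into classes by the summed share of marker UMIs (unique molecular identifiers, 1 for each captured transcript), and none of the 10 genes was used for this. After limits on genes, UMIs, mitochondrial share and doublet score, 18494 of 21739 barcodes were kept. Of these, 17443 were lens cells: 7217 resting, 5268 cycling (S or G2M genes), 2386 early differentiating (Cdkn1c, Ccdc80, Adamtsl4 and Basp1 high) and 2365 late differentiating (fiber genes such as Mip and Lim2 high). A further 540 were endothelial, 376 mural and 50 macrophages. Median UMIs per cell were 5427 and 6821 in resting, 11326 and 13002 in late differentiating, 3029 and 3241 in endothelial, and 3305 and 3448 in mural cells of the 2 pools. Marker checks followed the names: the 3 fiber crystallins summed to 29135 and 26124 CPM (UMIs of a gene scaled to the same total in every class) in late cells against 961 and 782 in resting cells. Of the class-assigned lens cells, 27.4% lay within a factor of 1.5 of a limit. The pools shared 27 barcodes.

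CPM are given below for pool 1 and then pool 2. They count 3′ ends and are compared between classes, not between genes. Log2 fold changes and their standard errors (SE) come from edgeR's quasi-likelihood test on UMIs summed per pool and class, with the pool as a block, TMM scaling and Benjamini-Hochberg adjustment over all genes tested. The p-values rest on variation between only 2 pools, estimated over all classes of a fit and moderated with the spread of other genes. They do not measure the spread of a single gene's difference between the pools. TMM scaling sets the typical gene near 0, whereas CPM also fall when a few genes, such as crystallins, take up more of the total. Counting intervals cover counting error only.

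**Figure D1:**
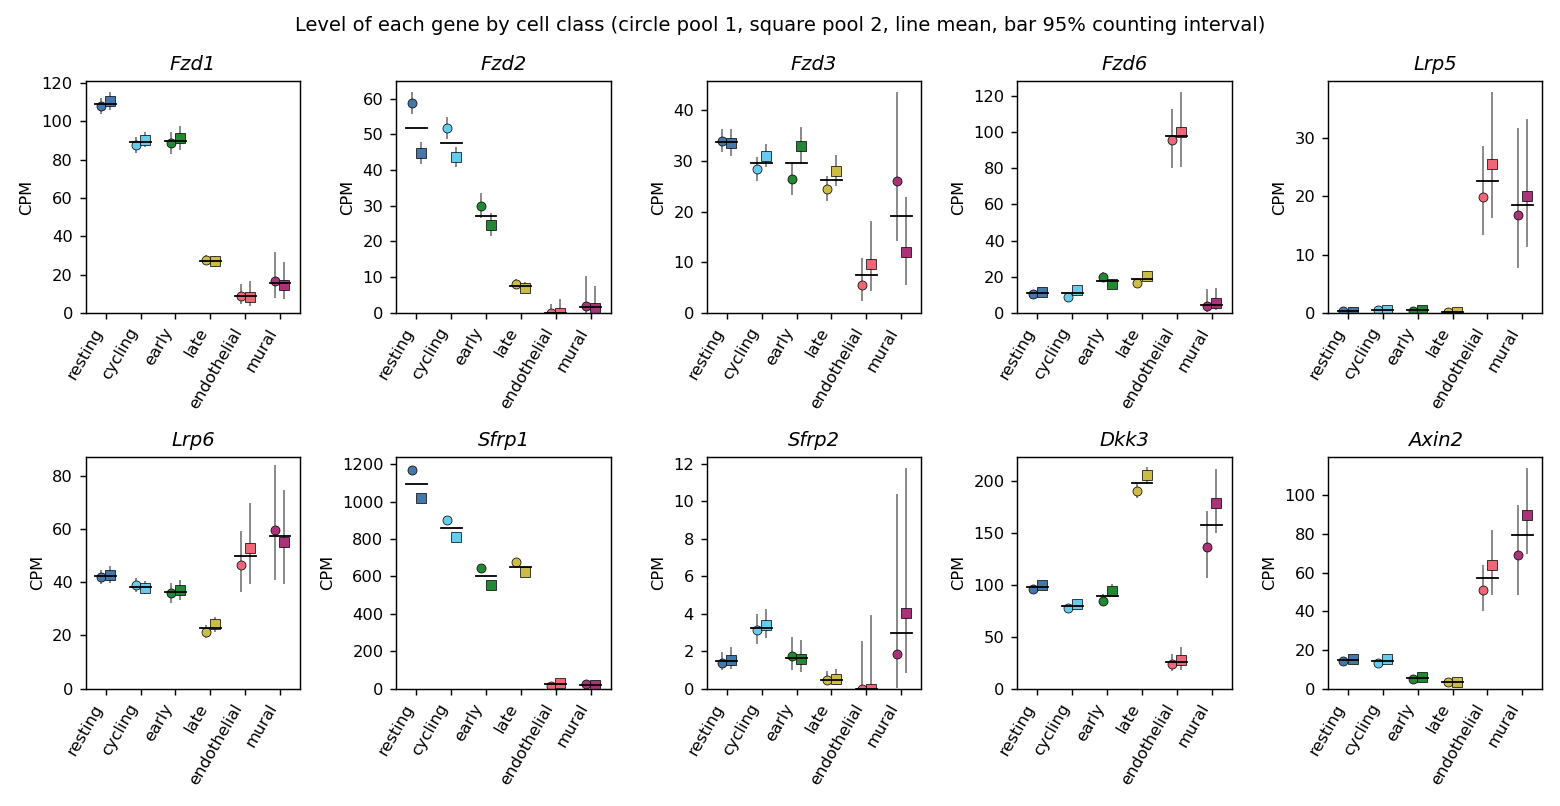
CPM (vertical axes, from 0) of each of the 10 genes in 4 classes of lens cells and 2 classes of vascular cells. Circles are pool 1 and squares pool 2, lines are the mean of the pools and bars the exact 95% counting interval. Fzd1 is highest in resting cells, Fzd2 in resting and cycling cells (which overlap), Dkk3 in late differentiating cells, Fzd6 in endothelial cells and Axin2 in mural cells.

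Among the receptors, Fzd1 was highest in resting cells and Fzd2 in resting and cycling cells, whose pools overlapped for Fzd2. Both genes were lowest, among lens cells, in late differentiating cells. Fzd1, a receptor that can signal through β-catenin, had 108 and 110.5 CPM in resting cells, 87.8 and 90.4 in cycling cells, 88.4 and 91.1 in early differentiating cells, and 27.4 and 26.9 in late differentiating cells. The pools of cycling and early cells overlapped, and all other neighbors in this order were separate. Fzd1 fell by 0.31 on the log2 scale in cycling against resting cells (SE 0.05, adjusted p = 3.50e-07) and by 1.27 in late against early differentiating cells (SE 0.07, adjusted p = 5.97e-20). The smaller step from resting to early cells, -0.21 (SE 0.05, adjusted p = 0.00117), did not pass without the replicate block (adjusted p = 0.0719) or with stricter gates (adjusted p = 0.0869).

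Fzd2, a close relative of Fzd1 in the receptor family, fell in both steps of differentiation. Its levels were 58.8 and 44.7 CPM in resting, 51.7 and 43.6 in cycling, 29.9 and 24.6 in early, and 8.02 and 6.92 in late differentiating cells. Pool 1 was above pool 2 in each of these classes, and resting and cycling cells overlapped. Fzd2 fell by 0.85 in early against resting cells (SE 0.07, adjusted p = 3.35e-13) and by a further 1.42 in late against early cells (SE 0.11, adjusted p = 5.12e-14). From resting to late cells the log2 difference was -2.27 for Fzd2 (SE 0.09, adjusted p = 6.61e-25) and -1.48 for Fzd1 (SE 0.06, adjusted p = 1.69e-24). Whether the 2 genes differ in this respect was not tested.

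Fzd3 and Fzd6, the receptors tied to planar polarity, took other courses. Fzd3 had 34.0 and 33.5 CPM in resting, 28.4 and 31.0 in cycling, 26.4 and 32.9 in early, and 24.5 and 28.01 in late cells. The pools of cycling, early and late cells overlapped. On the TMM scale Fzd3 rose by 0.27 from early to late cells (SE 0.09, adjusted p = 0.0128), but with library totals the value turned to -0.18, and without the replicate block the adjusted p was 0.149. The 2 pools gave 0.38 and 0.17. From resting to late cells Fzd3 did not pass (0.15, SE 0.08, adjusted p = 0.0928), and with library totals it was lower there (-0.38, adjusted p = 0.000172).

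Fzd6 had 10.6 and 11.6 CPM in resting, 8.99 and 12.7 in cycling, 19.6 and 16.1 in early, and 16.7 and 20.4 in late cells. Early and late cells overlapped, and both stood above resting cells. Fzd6 rose by 0.76 from resting to early cells (SE 0.12, adjusted p = 1.61e-06) and by 1.25 from resting to late cells (SE 0.11, adjusted p = 3.26e-13). With library totals these values were 0.69 (adjusted p = 0.000162) and 0.73 (adjusted p = 8.29e-06). The step from early to late cells, 0.49 (SE 0.12, adjusted p = 7.43e-04), varied between 0.25 and 0.74 in the pools. It did not pass with library totals (0.04) or without the replicate block (adjusted p = 0.0556).

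Of the co-receptors, Lrp6 could be followed in lens cells and Lrp5 could not. Lrp6 had 41.9 and 42.9 CPM in resting, 38.9 and 37.9 in cycling, 35.9 and 37.0 in early, and 21.4 and 24.1 in late cells, with no overlap of neighboring classes. Lrp6 fell by 0.38 from resting to late cells (SE 0.07, adjusted p = 1.53e-05). The step from early to late cells was -0.24 (SE 0.08, adjusted p = 0.0199) and did not pass without the replicate block (adjusted p = 0.0874). Lrp5 was nearly absent from lens cells: 45 UMIs in all 17443 cells, or 0.323 and 0.345 CPM. It was too low to be tested between lens classes, and late cells held 3 UMIs against 12 in resting cells (38.8% of the level, exact 95% interval 7.02% to 144%).

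The secreted modulators took different courses. Sfrp1 had 1168 and 1019 CPM in resting, 903 and 813 in cycling, 647 and 556 in early, and 679 and 623 in late cells. The pools of early and late cells overlapped and pool 1 was the higher in each class. Sfrp1 fell by 0.37 in cycling (SE 0.04, adjusted p = 4.99e-12) and by 0.79 in early differentiating cells (SE 0.04, adjusted p = 2.13e-22), both against resting cells. From early to late cells it rose by 0.56 on the TMM scale (SE 0.04, adjusted p = 5.99e-17) and by 0.12 with library totals (adjusted p = 0.00323). Late cells remained below resting cells by 0.23 (SE 0.04, adjusted p = 4.98e-07), which did not pass without the replicate block (adjusted p = 0.0572). After thinning each cell to 2000 UMIs, with shallower cells left out, 88.1% and 84.6% of resting cells and 73.6% and 68.4% of late cells had a UMI of Sfrp1.

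Sfrp2, the near relative of Sfrp1, was rare, with 252 UMIs in all lens cells. Its level was 3.10 and 3.39 CPM in cycling against 1.39 and 1.54 in resting cells, and 1.72 and 1.56 in early against 0.449 and 0.483 in late cells. Cycling cells were thus above resting cells in both pools (log2 difference 1.13, SE 0.22, adjusted p = 3.17e-05), the only one of the tested genes that rose there. The decrease from early to late cells (-1.36, SE 0.45, adjusted p = 0.0117) did not pass with DESeq2 (adjusted p = 0.0723) or without doublet removal (adjusted p = 0.068).

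Dkk3 rose in late differentiation. It had 95.9 and 99.3 CPM in resting, 77.8 and 81.0 in cycling, 84.7 and 94.0 in early, and 190.3 and 205 in late cells. No pools overlapped, and late cells stood far above the rest of the lens. Dkk3 rose by 1.59 from early to late cells (SE 0.05, adjusted p = 6.68e-28), and by 1.15 with library totals. From resting to early cells it did not pass (-0.05, SE 0.05, adjusted p = 0.443), and with library totals or stricter gates it was lower there (-0.13 and -0.23). In cycling cells Dkk3 fell by 0.32 (SE 0.05, adjusted p = 3.76e-07). The thinned share of cells with a UMI was 17.3% and 18.7% in resting cells and 28.9% and 31.3% in late cells.

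Axin2, the target gene, was low in lens cells and lower still once differentiation had begun. Its level was 14.3 and 15.2 CPM in resting, 13.1 and 15.1 in cycling, 4.85 and 5.73 in early, and 3.46 and 3.47 in late cells. Resting and cycling cells overlapped and did not pass the test (-0.09, SE 0.09, adjusted p = 0.447). Axin2 fell by 1.41 from resting to early cells (SE 0.14, adjusted p = 1.96e-11). From early to late cells the difference was -0.15 (SE 0.20, adjusted p = 0.57), although with library totals it passed (-0.60, adjusted p = 0.0101).

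**Figure D2:**
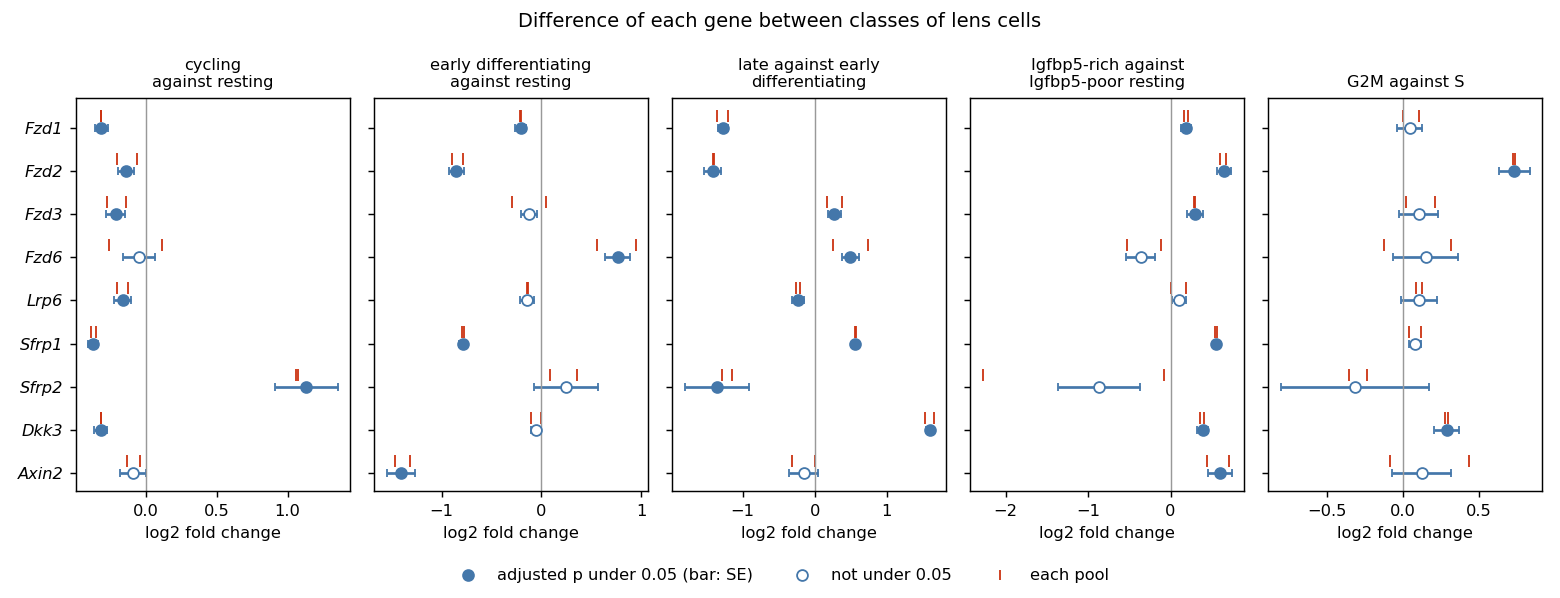
Log2 fold change (horizontal axes) of 9 genes in 5 comparisons of lens cell classes; Lrp5 was too low to be tested. Points are edgeR estimates with their SE, filled where the adjusted p was under 0.05, and the short red lines are the 2 pools. Axin2 falls in early differentiating cells, Fzd1 and Fzd2 fall and Dkk3 rises in late cells, and Fzd2 is higher in G2M than in S.

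Counts of genes called put these values in context. Cycling against resting cells called 52.3% of the 13438 genes tested (23.3% higher and 28.9% lower), and of the 9 tested Wnt genes 1 was higher (Sfrp2) and 6 were lower. Of the lower ones, Fzd2 (-0.14, SE 0.06, adjusted p = 0.0408), Fzd3 (-0.21, SE 0.07, adjusted p = 0.00825) and Lrp6 (-0.16, SE 0.06, adjusted p = 0.0219) were small, and the pools gave -0.20 and -0.06 for Fzd2 and -0.27 and -0.14 for Fzd3. These 3 did not pass without the replicate block (adjusted p = 0.42, 0.222 and 0.181) or with DESeq2 (adjusted p = 0.466, 0.235 and 0.312). Nor did they pass with all 6 classes in 1 fit (adjusted p = 0.257, 0.0700 and 0.151). Fzd2 and Lrp6 also failed with library totals (adjusted p = 0.112 and 0.0655) and stricter gates (0.0727 and 0.0779). Fzd2 failed as well with no filter (0.0750), DESeq2 size factors in edgeR (0.0726) and no doublet removal (0.0763). Early against resting cells called 43.3% of all genes (21.6% higher and 21.6% lower) and 5 of the 9, 1 higher and 4 lower. Late against early cells called 44.5% of all genes (23.6% higher and 20.9% lower) and 8 of the 9, 4 in each direction. Late against resting cells called 64.7% of all genes (32.1% higher and 32.6% lower) and 8 of the 9, 2 higher and 6 lower.

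Scaling weighed most in late cells. With library totals in place of TMM factors the median of all genes shifted from -0.02 to -0.46 in late against early cells, and the calls went from 3176 higher and 2809 lower to 835 higher and 8274 lower. Against resting cells the median went from -0.03 to -0.55 and the calls from 4320 higher and 4380 lower to 1536 and 9021. In early against resting cells the calls went from 2904 higher and 2909 lower to 2145 and 3530. Relative to these shifts, Dkk3 and Sfrp1 rose and Fzd1 and Fzd2 fell from early to late cells under both scalings.

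Within the resting class, cells were further divided by Igfbp5, which encodes a binding protein of insulin-like growth factors, into 2172 Igfbp5-rich and 3329 Igfbp5-poor cells. Of the 9 tested genes, 6 were higher in the rich cells and 0 lower, where 22.7% of all genes were called (10.6% higher and 12.1% lower). Fzd2 had 73.9 and 57.6 CPM in rich against 45.5 and 37.1 in poor cells (log2 difference 0.65, SE 0.08, adjusted p = 1.73e-09). Sfrp1 had 1424 and 1262 CPM against 946 and 852 (0.55, SE 0.04, adjusted p = 8.43e-19). Within each pool the rich cells were the higher for both genes.

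Axin2 had 17.6 and 18.2 CPM in Igfbp5-rich and 10.5 and 13.04 in Igfbp5-poor cells, with no overlap (0.60, SE 0.14, adjusted p = 7.97e-04). Dkk3 was higher by 0.39 (SE 0.06, adjusted p = 1.34e-06), Fzd3 by 0.30 (SE 0.10, adjusted p = 0.0155) and Fzd1 by 0.19 (SE 0.06, adjusted p = 0.0235). Axin2, Fzd3 and Fzd1 did not pass without the replicate block (adjusted p = 0.0637, 0.2 and 0.265) or with DESeq2 (adjusted p = 0.0964, 0.228 and 0.229).

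Cycling cells were compared by phase, with 1494 cells high in G2M genes alone and 988 high in S genes alone. Fzd2 had 73.5 and 66.03 CPM in G2M against 42.5 and 38.1 in S, a clear gap in both pools (0.74, SE 0.10, adjusted p = 2.46e-08). The resting class, at 58.8 and 44.7 CPM of Fzd2, was below G2M in both pools, without a test. Dkk3 was higher in G2M by 0.29 (SE 0.08, adjusted p = 0.00375), which did not pass without the replicate block (adjusted p = 0.0698). These were 2 of the 9 genes tested, where 29.6% of all genes were called (13.4% higher and 16.2% lower). In the 2786 cells high in both sets, a class added after the data were seen, Fzd2 had 45.9 and 35.7 CPM, near the level in S.

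**Figure D3:**
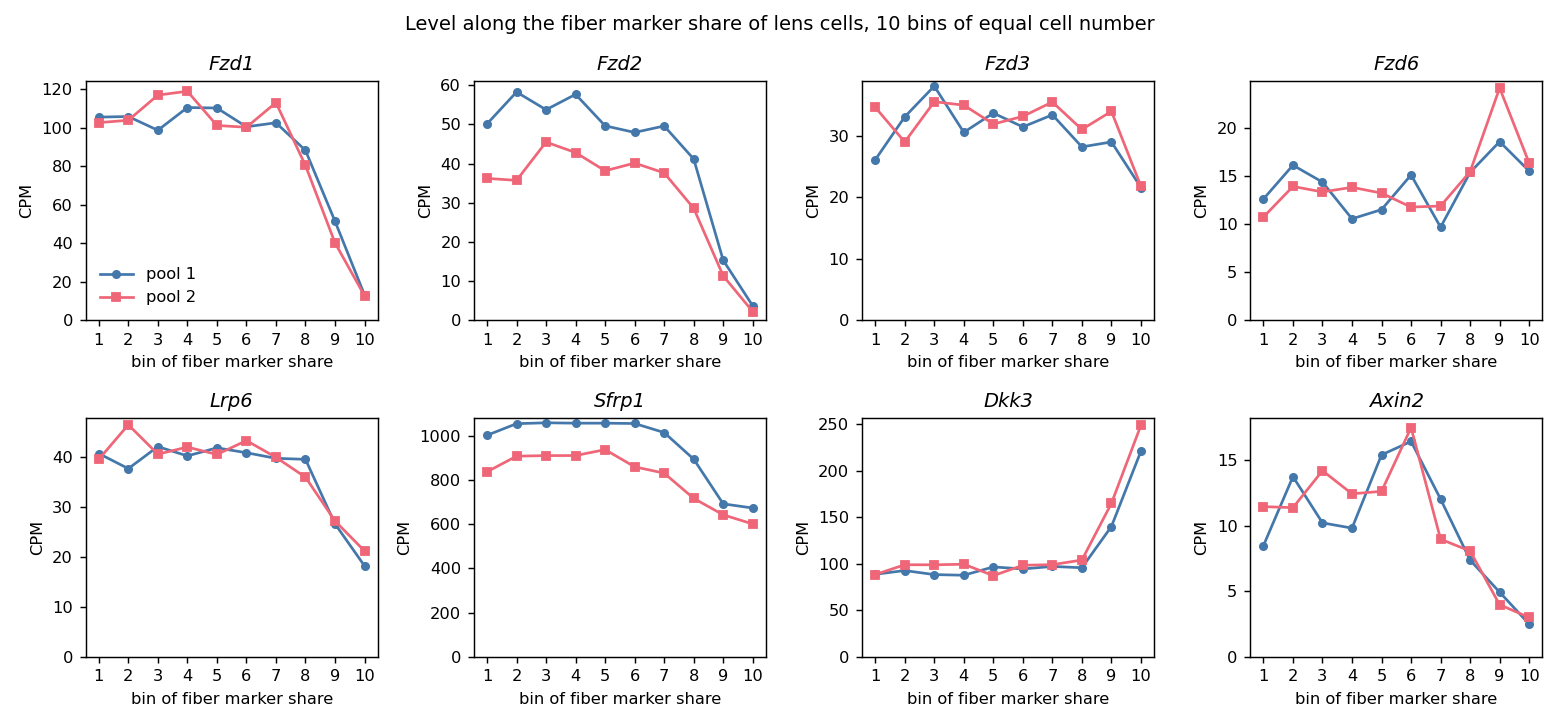
CPM (vertical axes, from 0) of 8 genes in noncycling lens cells ordered by their share of fiber marker UMIs and divided into 10 bins of equal cell number; blue circles are pool 1 and red squares pool 2. Axin2 is highest in bin 6 and lowest in bins 9 and 10, where Fzd1 and Fzd2 decline and Dkk3 rises.

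When the noncycling lens cells were ordered by fiber marker share, most of these genes were level over the first 7 bins and moved in the last 3. Median UMIs per cell rose with the order too, from 5668 in bin 1 to 13625 in bin 10, and their part in the levels was not tested. Axin2 had 8.47 and 11.5 CPM in bin 1, a mean of 17.0 in bin 6, and 2.50 and 2.999 in bin 10. Fzd1 had 106 and 103 CPM in bin 1, 88.2 and 80.4 in bin 8, 51.4 and 40.2 in bin 9, and 13.1 and 12.7 in bin 10. Dkk3 had 88.6 and 88.3 CPM in bin 1 and 95.6 and 104 in bin 8. It reached 139.9 and 165 in bin 9 and 221 and 248.6 in bin 10. As log2 ratios of bin 10 to bin 1, with 1 CPM added and without a test, the mean of the pools was -3.51 for Fzd2, -2.92 for Fzd1, -1.54 for Axin2, -0.99 for Lrp6, -0.53 for Sfrp1, -0.45 for Fzd3, 0.42 for Fzd6 and 1.40 for Dkk3. The 2 pools differed in these ratios by an SD between 0.00429 (Fzd1) and 0.271 (Fzd3).

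**Figure D4:**
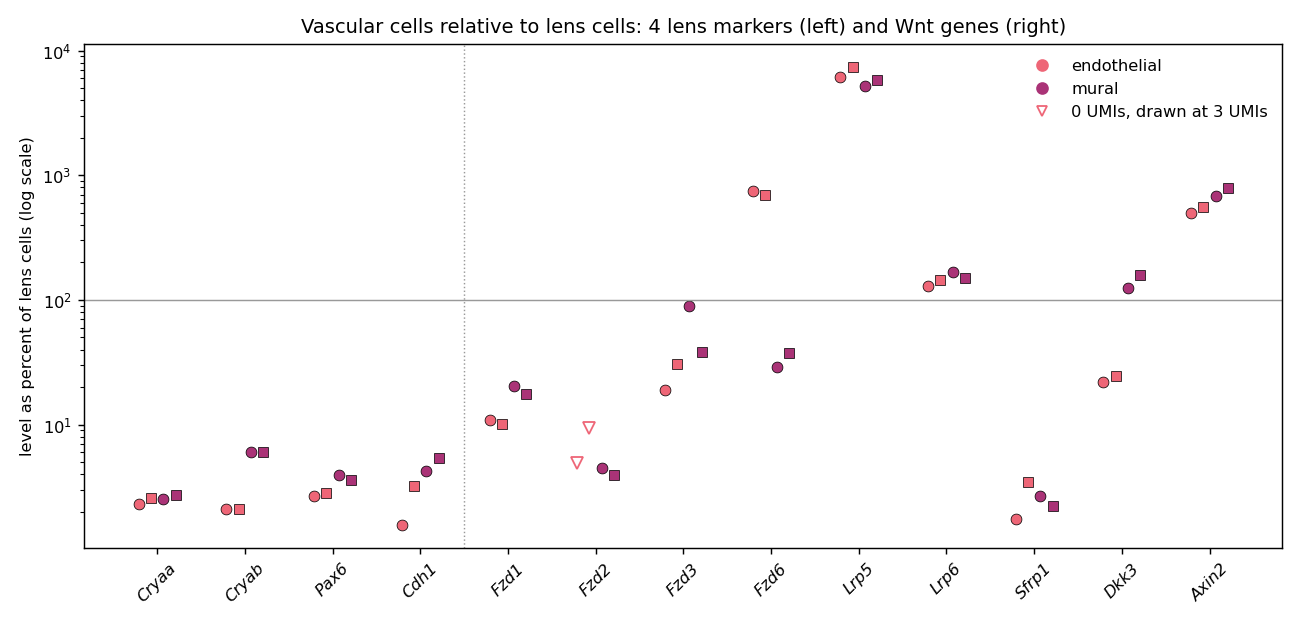
Level in endothelial (pink) and mural (purple) cells as a percent of the level in lens cells, on a log axis, for 4 lens markers and 9 of the Wnt genes (Sfrp2 is left out, being too rare). Circles are pool 1, squares pool 2, and open triangles mark 0 UMIs drawn at the level of 3 UMIs. Sfrp1 lies among the lens markers, and Lrp5, Fzd6 (endothelial) and Axin2 lie far above 100%.

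Vascular cells carried another set of these genes. As a guide to lens RNA in the vascular droplets, 4 of the 6 lens markers of the gates (Cryaa, Cryab, Pax6 and Cdh1) were read there. They stood at 1.56% to 3.23% of the lens level in endothelial cells and 2.51% to 6.08% in mural cells. The range does not hold for the whole list. Another lens marker was uneven, at 0% and 21.4% in endothelial and 52.3% and 0% in mural cells of the 2 pools. Sfrp1 stood at 1.74% and 3.49% in endothelial and 2.66% and 2.21% in mural cells, about the range of the 4 markers. Whether its reads there are carried over from lens cells or expressed was not tested. Fzd2 had 0 UMIs in endothelial cells, at least 20.2-fold lower than in lens cells in pool 1 and at least 10.7-fold lower in pool 2 (against a floor of 3 UMIs per pool). In mural cells Fzd2 had 2 UMIs, or 4.10% of the lens level (exact 95% interval 0.497% to 14.8%). Fzd1 stood at 10.9% and 10.1% of the lens level in endothelial and at 20.4% and 17.6% in mural cells.

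In the other direction, the endothelial marker list reached 0.55% and 0.526% of its endothelial level in lens cells, and the mural list 0.134% and 0.124% of its mural level. Between the vascular classes, the endothelial list reached 5.83% and 5.70% of its endothelial level in mural cells, and the mural list 0.108% and 0.0966% of its mural level in endothelial cells. All 11 endothelial markers and all 11 mural markers had UMIs in their own class. The G2M genes summed to 1778 CPM in endothelial cells of pool 1 against 411 in pool 2, and to 594 against 85.9 in mural cells. Their part in the pool differences of vascular values was not tested. The mural class also held fibroblast markers at 609 and 645 CPM, with 2 of 5 at 0 UMIs.

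Lrp5, the co-receptor of the norrin pathway, had 19.9 and 25.5 CPM in endothelial and 16.8 and 20.1 in mural cells, against 0.323 and 0.345 in lens cells. The vascular classes overlapped with each other and stood far above the lens. Lrp5 was higher by 5.77 on the log2 scale in endothelial (SE 0.37, adjusted p = 5.45e-11) and by 5.56 in mural cells (SE 0.51, adjusted p = 1.62e-08), from 53, 24 and 45 UMIs in endothelial, mural and lens cells. The lens level was 1.62% and 1.35% of the endothelial level. The other co-receptor, Lrp6, had 46.7 and 53.1 CPM in endothelial and 59.6 and 55.1 in mural cells against 35.9 and 36.5 in all lens cells, and did not pass in either (0.17, SE 0.16, adjusted p = 0.364, and 0.45, SE 0.19, adjusted p = 0.0552). With library totals it passed in both, at 0.45 in endothelial (adjusted p = 0.0233) and 0.65 in mural cells (adjusted p = 0.00808). In mural cells it also passed without the replicate block (adjusted p = 0.048), with DESeq2 size factors in edgeR (adjusted p = 0.0392), with crystallin genes left out (adjusted p = 0.0390) and with percentiles taken within pools (adjusted p = 0.0321).

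Fzd6 marked the endothelial side. It had 95.4 and 99.8 CPM in endothelial cells against 12.8 and 14.4 in lens cells and 3.72 and 5.37 in mural cells, with no overlap. Fzd6 was higher by 2.57 in endothelial than in lens cells (SE 0.16, adjusted p = 3.01e-11) and lower in mural than in endothelial cells (log2 difference -4.33, SE 0.37, adjusted p = 1.39e-08). A UMI of Fzd6 was present, after thinning, in 15.5% and 14.5% of endothelial cells against 1.42% and 1.01% of mural and 1.98% and 1.98% of resting lens cells. In mural cells Fzd6 stood at 3.90% and 5.38% of the endothelial level (6 UMIs, 4.82% over both pools, exact 95% interval 1.75% to 10.6%). The endothelial marker list reached 5.83% and 5.70% of its endothelial level there. Whether the mural reads of Fzd6 are carried over or expressed was not tested.

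Axin2 was higher in both vascular classes than anywhere in the lens. It had 50.8 and 63.7 CPM in endothelial and 68.9 and 90.0 in mural cells against 10.2 and 11.4 in lens cells. Axin2 was higher by 2.12 in endothelial (SE 0.18, adjusted p = 5.09e-09) and by 2.68 in mural cells (SE 0.20, adjusted p = 1.07e-09). Mural and endothelial cells did not differ past the threshold (0.56, SE 0.22, adjusted p = 0.0506), although the pools did not overlap, and the difference passed with DESeq2 size factors in edgeR (adjusted p = 0.0482) and with all 6 classes in 1 fit (adjusted p = 0.0323). The thinned share of cells with a UMI was 7.95% and 13.4% in endothelial, 11.3% and 13.1% in mural and 2.58% and 3.01% in resting lens cells.

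Dkk3 separated the vascular classes from each other, and Fzd3 did so less clearly. Dkk3 had 135.9 and 179 CPM in mural cells against 24.03 and 27.6 in endothelial cells (log2 difference 2.70, SE 0.21, adjusted p = 2.93e-09). Against lens cells, with 109.7 and 112 CPM, Dkk3 was lower in endothelial cells (-2.39, SE 0.17, adjusted p = 4.02e-10) and did not pass in mural cells (0.31, SE 0.14, adjusted p = 0.0632), where library totals gave 0.52 (adjusted p = 0.00316). The mural value also passed, at 0.34 or 0.35, with DESeq2 size factors in edgeR (adjusted p = 0.0380), crystallin genes left out (adjusted p = 0.0402), no doublet removal (adjusted p = 0.0354) and percentiles taken within pools (adjusted p = 0.0483). Fzd3 had 26.1 and 12.1 CPM in mural (14 and 9 UMIs) and 5.49 and 9.56 in endothelial cells (8 and 9 UMIs). The mural against endothelial difference of Fzd3 (1.41, SE 0.50, adjusted p = 0.0325) was uneven, at 2.29 in pool 1 and 0.41 in pool 2, and did not pass with DESeq2 (adjusted p = 0.0642). Against lens cells, Fzd3 was lower in endothelial (-2.36, SE 0.32, adjusted p = 2.19e-06) and in mural cells (-0.96, SE 0.31, adjusted p = 0.0144), with -0.38 and -1.57 in the 2 mural pools. DESeq2 (adjusted p = 0.141) did not call the mural value.

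In sum over the 9 genes tested in each vascular comparison, endothelial against lens cells had 3 higher and 5 lower where 63.8% of 10084 genes were called (29.9% higher and 33.9% lower). Mural against lens cells had 2 higher and 5 lower where 55.9% were called (27.7% higher and 28.2% lower), and mural against endothelial cells had 2 higher and 1 lower where 36.6% were called (19.5% higher and 17% lower). Sfrp2 was too low for these tests, with 0 UMIs in endothelial cells and 4 in mural cells, or 167% of the lens level (exact 95% interval 45.2% to 434%). With library totals, calls over all genes went from 3014 higher and 3422 lower to 3910 and 2463 in endothelial cells, and from 2797 and 2844 to 3311 and 2182 in mural cells, both against lens cells. Comparisons with lens cells share the same lens sums, as those with resting cells share the resting sums.

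The other 91 genes of a list of Wnt ligands, receptors, inhibitors, transducers and targets gave the surroundings of these 10. Between lens classes, 60 of them were tested. In early against resting cells 15 were higher and 29 lower, where 21.6% of all genes were higher and 21.6% lower. The median log2 difference was -0.20, against 0.00 over all genes, and 7 of the 9 inhibitors tested were lower. Sostdc1, a secreted antagonist of Wnt and BMP signaling, fell, with 77.2 and 75.1 CPM in resting and 3.84 and 3.33 in early cells (-4.33, SE 0.11, adjusted p = 6.79e-32). The target gene Myc, a growth regulator, had 9.74 and 13.9 CPM in resting and 2.63 and 1.15 in early cells. Ccnd1, a cyclin also counted among the targets, had 327 and 332 CPM in resting and 415 and 428 in early cells, and was higher (0.43, SE 0.04).

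In late against early cells 10 of the 60 were higher and 24 lower (median -0.28, against -0.02 over all genes). Of all genes, 23.6% were higher and 20.9% lower there. Rspo1, an R-spondin that enhances Wnt signaling, had 3.23 and 1.56 CPM in early and 22.0 and 18.7 in late cells. The ligand gene Wnt7a had 0.404 and 0.312 CPM in early against 10.9 and 8.29 in late cells, and 10.9 and 9.69 in resting cells. Wnt7b, another ligand, had 157 and 144 CPM in resting, 135 and 120.1 in early and 93.1 and 83.2 in late cells (late against early -0.08, SE 0.05, adjusted p = 0.215). Against resting cells, late cells had 15 higher and 30 lower (median -0.33, against -0.03), where 32.1% of all genes were higher and 32.6% lower. Fzd7, the relative of Fzd1 and Fzd2, had 23.0 and 26.5 CPM in resting and 1.67 and 2.41 in late cells.

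In cycling against resting cells 6 of the 60 were higher and 19 lower (median -0.13, against -0.07 over all genes). Of all genes, 23.3% were higher and 28.9% lower there. The ligand secretion genes Wls and Porcn were both lower (-0.52 and -0.91). In Igfbp5-rich against Igfbp5-poor cells 14 of 57 were higher and 5 lower (median 0.17, against 0.00). Of all genes, 10.6% were higher and 12.1% lower there. Dkk1, an inhibitor that binds LRP5 and LRP6, had 12.2 and 16.9 CPM in rich and 2.20 and 4.601 in poor cells (2.09, SE 0.23, adjusted p = 2.58e-11). In G2M against S cells 7 of 57 were higher and 11 lower (median -0.04, against 0.00). Of all genes, 13.4% were higher and 16.2% lower there.

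In the vascular comparisons 51 of the 91 genes were tested. Endothelial against lens cells called 29.9% of all genes higher and 33.9% lower. Of the 51, 21 were higher and 21 lower (median 0.22, against -0.08 over all genes). Among those higher were genes known to respond to β-catenin: Lef1, a TCF/LEF factor, had 222 and 244 CPM in endothelial against 0.196 and 0.251 in lens cells, and Apcdd1, an inhibitor induced by the pathway, had 546 and 579 against 0.884 and 1.10. Nkd1, a feedback inhibitor, had 427 and 322 CPM in endothelial and 391 and 359.9 in mural against 12.2 and 11.98 in lens cells. Of the 4 genes listed as targets besides Axin2, 3 were higher and 1 was lower in endothelial than in lens cells. In mural against lens cells 2 of these 4 were higher and 1 was lower. Fzd4, the norrin receptor, had 80.3 and 72.2 CPM in endothelial and 31.7 and 29.5 in mural against 6.63 and 6.49 in lens cells (endothelial 3.27, SE 0.18, adjusted p = 3.84e-12). Ndp, the gene of norrin, had 0 UMIs in both vascular classes and 0.112 and 0.0941 CPM in lens cells. On the lens side, Wnt7b had 134 and 123 CPM against 5.49 and 4.25 in endothelial cells, and Sostdc1 had 42.0 and 38.9 CPM against 0 UMIs.

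Mural against lens cells had 20 of 51 higher and 14 lower, where 27.7% of all genes were higher and 28.2% lower. The median was 0.16, or 0.22 with genes at 0 UMIs set at a floor of 3 UMIs over the class, against -0.06 over all genes. Dkk2, a Dickkopf family gene, had 158 and 189 CPM in mural and 23.3 and 28.7 in endothelial against 0.0561 and 0.0157 in lens cells. Mural against endothelial cells had 17 higher and 9 lower (median 0.12, or 0.19 with such genes at the floor, against -0.03). Of all genes, 19.5% were higher and 17% lower there. Sp5, a transcription factor gene induced by Wnt signaling, had 19.9 and 20.2 CPM in endothelial cells and 0 UMIs in mural cells.

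The genes with the most similar levels over the 12 sums (6 classes in 2 pools) were found among 8733 genes by Pearson's r of log2(CPM + 5). The 12 sums come from the same 2 libraries and differ in depth, so r is a description. For Axin2 these were Lats2 (0.993), Mpc1 (0.993) and Fam168b (0.992), and for Fzd6 Nipal3 (0.980), Nxpe4 (0.979) and Chst15 (0.977). For Fzd1 they were Tpi1 (0.988), Nectin3 (0.987) and Cdh1 (0.987, a lens marker of the gates), and for Fzd2 Islr (0.992), Nectin3 (0.992) and Tmem35a (0.990). Sfrp1 was closest to Cspg5 (0.997), Ppp1r1a (0.996) and Epb41l3 (0.995), and Dkk3 to S100a6 (0.977), H19 (0.952) and Aldh7a1 (0.936). Fzd3 was closest to the receptor gene Ror1 (0.967), Ndn (0.959) and Ddr1 (0.956), Lrp6 to Plpp5 (0.986), Ext2 (0.986) and Tmem120a (0.981), and Lrp5 to Rbpms, Adgre5 and BC028528 (0.998 or above). Sfrp2 never reached the 20 CPM asked of the other genes, and its nearest were Mrpl15 (0.956), Fads2 (0.945) and Cuta (0.943).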

How the data were processed

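Lens epithelium of P2 wild-type pups was profiled in 2 pools (replicates 1 and 2; 93839132 and 86033032 UMIs, medians of 6307 and 8050 per barcode). The authors aligned and counted reads with Cell Ranger 6.1.1 (version per the file headers) on mm10, and the deposited values are raw UMI counts per gene and barcode. The 10 genes, the Wnt list and the marker lists were chosen with earlier results of these data known.

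Barcodes were kept between the 2nd and 97th percentiles, taken over both pools, of genes and of UMIs if at most 15% of their UMIs were mitochondrial. Scrublet (in scanpy 1.11.5) then scored doublets, and the top 8% per pool were dropped. Classes were set by marker UMIs per 10000 UMIs, at limits read from the distributions of the marker shares: at least 32 for vascular lists (with lens markers under 128), at least 128 of lens markers with vascular markers under 8, then at least 10 for S or G2M genes, 24 for fiber genes and 20 for early differentiation genes. Igfbp5-rich cells had at least 6 and Igfbp5-poor cells under 2.

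Sums of UMIs per pool and class were compared by edgeR 4.0.16 in R 4.3.3 (TMM factors, filterByExpr at its defaults, quasi-likelihood test, Benjamini-Hochberg at 0.05 over all genes). Genes that set the classes were left out of counts of genes called. The values of 1 lens marker are not reported here. The replicate number names the pool, and the classes of a pool come from 1 library and the same pups, so the pool was a block. SE is the log2 fold change divided by the square root of F. Tests were checked on simulated data. From the Wnt list the text takes the largest called changes that go one way in each pool and reach 10 CPM in a group, and Fzd4, Ndp, Wnt7b and Sostdc1 whatever their values. The nearest genes had to reach 20 CPM in at least 1 sum. Alternatives were DESeq2 1.42.0, no filter, no replicate block, library totals, DESeq2 size factors, no crystallin genes, no doublet removal, percentiles within pools, barcodes under 1% mitochondrial UMIs left out, stricter gates (1.5 times), late cells gated on Crybb1 and Cryba2, all 6 classes in 1 fit, 5 bins and each pool left out.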

Additional observations from a re-analysis of the deposited data

How the results depend on the processing

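Of 891 values of the 10 genes under alternative settings, 827 kept their direction and their side of the threshold. All 54 called values had the same sign in both pools. Leaving out a pool leaves 1 pool per class and no test, so those fits gave values only, and no count of calls. With DESeq2, genes called were 3912 instead of 7023 (cycling against resting), 3684 instead of 5813 (early against resting), 1225 instead of 2889 (Igfbp5-rich against poor) and 2321 instead of 3768 (G2M against S), and Wnt genes called were 4 instead of 7 (cycling), 5 instead of 8 (late against early) and 3 instead of 6 (Igfbp5). Without the replicate block, genes called were 4176 (cycling), 3729 (early), 1002 (Igfbp5) and 2367 (G2M against S), and Wnt genes called 4, 5 (late against early), 3 and 1 (instead of 2, G2M against S). Apart from these and the losses named with each gene, the block changed no call among the 10 genes except that of Lrp6 in mural cells. With library totals, 9109 instead of 5985 genes were called in late against early cells, and Fzd3 turned to -0.18 (late against early) and -0.38 (late against resting). With all 6 classes in 1 fit, Wnt genes called were 4 in cycling cells and 5 instead of 3 in mural against endothelial cells. In G2M against S cells, values near 0 changed sign for Fzd1 without doublet removal (-0.0099) and for Fzd6 with stricter gates (-0.050). The causes were not tested. Depth limits Sfrp2 in vascular cells, which rests on few UMIs. Fzd2 has few UMIs there as well, but in endothelial cells it was at least 20.2-fold and 10.7-fold lower than in lens cells of the 2 pools. Lrp5 in lens cells also rests on few UMIs (45), although the lens sums were the deepest (71289860 and 63793726 UMIs).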

Other observations

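In the 50 macrophages, 9 of the 10 genes had at most 3 UMIs in a pool. The other, Lrp6, had 16 and 21 UMIs, or 178 CPM (exact 95% interval 102 to 290) and 191 CPM (118 to 292) from 24 and 26 cells, against 35.9 and 36.5 CPM in lens cells. No test was made on this class.

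Barcodes with fiber markers that were left out for exceeding the upper UMI limit numbered 148 and 204, with medians of 24317 and 24032 UMIs. Their levels lay at or beyond those of late differentiating cells for the falling receptors: Fzd1 had 12.4 and 14.8 CPM, and Fzd2 had 4.58 and 4.03. Dkk3 had 190.6 and 197 CPM, Sfrp1 had 638 and 593 CPM, and Axin2 had 3.44 and 3.87 CPM.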
